A study of Mus musculus with 8 samples.

Results

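Genes for the sensors of endoplasmic reticulum (ER) stress and for the ER quality control machinery were followed in skeletal muscle of mice labelled as knockouts of Grpel1, which encodes a nucleotide exchange factor of the mitochondrial import motor. The 9 genes, Atf6, Atf6b, Ern1, Xbp1, Sel1l, Syvn1, Herpud1, Edem1 and Creld2, were picked by name from the 14012 genes of the authors' count table, and all 9 had counts in every library. The libraries came from polyadenylated RNA of the quadriceps femoris, a large thigh muscle, 1 library per mouse, from 4 mice labelled KO (Grpel1 smk -/-) and 4 labelled WT (Grpel1 flox/flox). Both groups carry the floxed Grpel1 gene. In the first a tamoxifen-inducible Cre recombinase under a skeletal muscle actin promoter deletes it in muscle fibres, so that other cells of the muscle keep it. The sources used here do not say if the control mice of these libraries carried Cre or received tamoxifen, and the labels give no ages.

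The unfolded protein response of the ER has 3 branches. ATF6 and its relative ATF6B are transmembrane transcription factors that are cut free in the Golgi under stress. IRE1, the product of Ern1, is a kinase and endoribonuclease that cuts a short intron out of the Xbp1 mRNA in the cytosol, after which the mRNA codes for an active transcription factor. PERK, the remaining sensor, phosphorylates eIF2alpha and favours translation of ATF4. Misfolded ER proteins are returned to the cytosol and degraded (ER-associated degradation, ERAD). The ubiquitin ligase HRD1, encoded by Syvn1, its partner SEL1L and the membrane protein HERPUD1 form a core of this pathway, and EDEM1 marks misfolded glycoproteins for it. CRELD2 is a resident ER protein induced by ER stress. Skeletal muscle also depends on its ER as the store of calcium, the sarcoplasmic reticulum.

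The intron that IRE1 removes is shown because the counts per gene sum the forms of Xbp1 with and without it. It lies at chr11:5524279-5524304 of GRCm38 on the plus strand, in exon 4 of 5 and within the coding sequence of transcript Xbp1-201 of GENCODE M21. Of the 4 annotated Xbp1 transcripts, 3 hold these 26 bases within an exon. The 26 bases are in capitals, with 12 bases on each side, and their removal shifts the reading frame.

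Xbp1: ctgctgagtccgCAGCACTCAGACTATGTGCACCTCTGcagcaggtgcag

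Promoters of these genes are shown because ATF6 and XBP1 act through short elements near the start of their target genes. The RefSeq table for GRCm38.p6 gave promoters, 250 bases before to 50 after the start, for 8 of the 9 genes, Atf6 being the exception. They were searched on both strands for the ER stress response element ERSE (CCAAT and CCACG with 9 bases of any kind between them), for ERSE-II (ATTGG and CCACG with 1 base between them), for the core of the unfolded protein response element (TGACGTG) and for a C/EBP-ATF element (TGATGNAA). Matches were found in 3 of the 8 promoters, and they are given in capitals with 10 bases on each side, read along the strand of the gene.

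Herpud1, ERSE-II: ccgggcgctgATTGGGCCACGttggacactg

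Herpud1, C/EBP-ATF element: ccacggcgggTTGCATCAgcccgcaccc

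Syvn1, ERSE: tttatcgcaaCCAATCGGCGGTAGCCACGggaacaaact

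Creld2, ERSE: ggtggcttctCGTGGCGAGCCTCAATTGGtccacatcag

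The Herpud1 ERSE-II match lay 52 to 42 bases upstream of the RefSeq start. Its C/EBP-ATF match, on the opposite strand, lay 112 to 105 bases upstream. The ERSE of Syvn1 lay 44 to 26 bases upstream, and that of Creld2, on the opposite strand, 126 to 108 bases upstream. Among 32851 promoters of the same length, ERSE was present in 0.119%, ERSE-II in 0.0365%, the unfolded protein response core in 2.01% and the C/EBP-ATF element in 3.97%. The promoters of Atf6b, Xbp1, Ern1, Sel1l and Edem1 held none of these letters in this window. A match is a description of the sequence and shows no binding. The Herpud1 promoter, the only one with matches to 2 of the elements, runs from chr8:94386179-94386478 of GRCm38.p6 on the plus strand. In the authors' counts the span of Herpud1 starts at 94386500, past the end of this window, so the distances hold for the RefSeq start.

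Herpud1 promoter: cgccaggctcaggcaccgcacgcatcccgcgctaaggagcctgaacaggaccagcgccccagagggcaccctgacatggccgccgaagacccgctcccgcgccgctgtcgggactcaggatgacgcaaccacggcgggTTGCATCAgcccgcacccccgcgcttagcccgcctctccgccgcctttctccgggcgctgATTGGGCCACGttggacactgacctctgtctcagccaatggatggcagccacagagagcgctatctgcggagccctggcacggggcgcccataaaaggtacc

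The targeted gene was looked at first. Counts of Grpel1 over the whole gene gave 68.4 ± 3.04 CPM (counts scaled to a common library size) in control libraries and 65.3 ± 6.11 in those labelled knockout (SD, n = 4 each, edgeR adjusted p = 0.49). They do not check the labels, so every direction given here rests on them. Libraries held 16017565 to 20361144 counts on the 14012 genes, and 3 counts, the most that a count of 0 allows, were worth 0.119 to 0.242 CPM, which covers counting error only. CPM was taken over library sizes scaled by edgeR's TMM factors, 0.75 to 0.84 for control and 1.19 to 1.33 for knockout libraries. With edgeR's quasi-likelihood test and an adjusted p (Benjamini-Hochberg) under 0.01, 44.7% of all genes differed, 23.6% of all genes being higher and 21.1% lower in the knockouts. With library totals alone in place of TMM factors, the higher genes made up 90.7% of the calls rather than 52.7%, and the median log2 change over all genes moved from 0.07 to 0.73.

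For each of the 9 genes the values of both groups were apart, without overlap, against 53.4% of all genes, and the knockouts were the higher group, as in 4062 of the 14012 genes. Of the 9, 8 rose past the threshold, against 23.6% of all genes, and 0 fell. Syvn1 was not past it. The genes were chosen with earlier results of these data known, so the comparison with all genes is a description only. The median log2 fold change of the 9 genes was 0.79, and that of all genes was 0.07. The increases ranged from 1.36-fold for Herpud1 to 5.22-fold for Ern1 among the genes past the threshold. Ern1 and Atf6 were at the upper end and Herpud1 and Sel1l at the lower end. The order did not follow role, since the ERAD gene Edem1 rose 2.04-fold and the sensor gene Atf6b 1.5-fold. Each of the 9 genes was above the median of all genes also with library totals alone, where the median of the 9 was 1.47. In bulk muscle, a change in the share of cells of a type and a change in RNA per cell cannot be told apart.

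**Figure D1:**
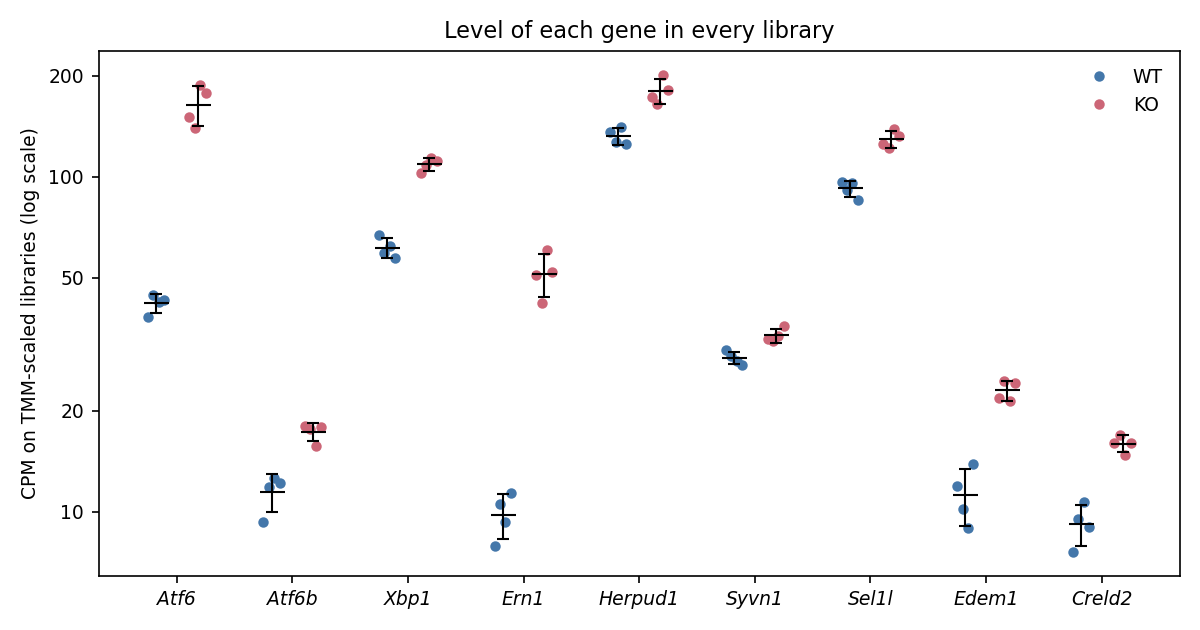
CPM of each of the 9 genes in the 4 control (WT) and 4 knockout (KO) libraries, on a shared log axis. The mean and SD of each group are drawn. For each gene all KO points lie above all WT points. The highest WT and lowest KO points of Syvn1, at 30.4 and 32.2 CPM, are close.

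Atf6 (Entrez Gene 226641) lies on the minus strand of chromosome 1 from 170704457 to 170867771 of GRCm38. Control replicates 1 to 4 had 471, 677, 591 and 679 counts, or 38.1, 44.3, 42.3 and 42.8 CPM, and knockout replicates 1 to 4 had 3618, 3050, 4566 and 4469 counts, or 151, 139.7, 188 and 178 CPM. The lowest knockout library thus lay at 139.7 CPM and the highest control library at 44.3 CPM. Means were 41.9 ± 2.68 CPM in control libraries and 164 ± 22.7 CPM in the knockouts (SD, n = 4 each). This is 3.92-fold (95% confidence interval 3.33 to 4.61), a log2 fold change of 1.97 ± 0.11 (SE, edgeR adjusted p = 4.3e-07), above 96.1% of all genes.

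Its relative Atf6b (Entrez Gene 12915), on the plus strand of chromosome 17 from 34647146 to 34655074, changed less. It had 9.29, 11.8, 12.6 and 12.2 CPM in control replicates 1 to 4 and 18, 17.7, 15.7 and 17.9 CPM in knockout replicates 1 to 4, so knockout replicate 3 stood below the other knockouts yet above every control. The log2 fold change was 0.59 ± 0.11 (SE, edgeR adjusted p = 9.8e-04), or 1.5-fold (1.27 to 1.78). The balance between these relatives was therefore compared within each library. The count of Atf6 was 4.10, 3.74, 3.36 and 3.5 times that of Atf6b in control replicates 1 to 4 and 8.39, 7.90, 12 and 9.91 times in knockout replicates 1 to 4. On the log2 scale this ratio was 1.86 ± 0.12 in control and 3.23 ± 0.27 in knockout libraries (SD, n = 4 each), without overlap (two-sided exact permutation, p = 0.0286, which is the minimum for 4 against 4). A ratio of counts within a library does not depend on the scaling between libraries. The log2 ratios here and below were taken from log2 CPM with a prior count of 2, so the scaling enters them slightly.

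Ern1 (Entrez Gene 78943), on the minus strand of chromosome 11 from 106397620 to 106487796, had the largest change of the 9 genes. Control replicates 1 to 4 had 98, 161, 130 and 180 counts, or 7.92, 10.5, 9.30 and 11.3 CPM, and knockout replicates 1 to 4 had 1222, 916, 1460 and 1307 counts, or 51.0, 41.9, 60.3 and 52.0 CPM. Among the knockouts replicate 3 was highest and replicate 2 lowest. Means were 9.78 ± 1.5 and 51.3 ± 7.49 CPM (SD, n = 4 each), which gave a log2 fold change of 2.39 ± 0.14 (SE, edgeR adjusted p = 6.3e-07) or 5.22-fold (4.23 to 6.45), above 97.4% of all genes.

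Xbp1 (Entrez Gene 22433), on the plus strand of chromosome 11 from 5520641 to 5525993, encodes the transcription factor made from the mRNA that IRE1 cuts. It had 67.0, 59.1, 62.0 and 57.3 CPM in control replicates 1 to 4 and 102, 108, 114 and 111 CPM in knockout replicates 1 to 4. The groups were tight and far apart. The log2 fold change was 0.83 ± 0.070 (SE, edgeR adjusted p = 6.2e-06), or 1.78-fold (1.59 to 1.98). These counts hold both forms of the mRNA and do not tell how much of it was cut at the 26 bases shown above. The count of Xbp1 was 8.46, 5.61, 6.67 and 5.05 times that of Ern1 in control replicates 1 to 4 and 2.01, 2.58, 1.89 and 2.15 times in knockout replicates 1 to 4. On the log2 scale the ratio fell by 1.55, from 2.65 ± 0.32 to 1.10 ± 0.19 (SD, n = 4 each), without overlap (two-sided exact permutation, p = 0.0286).

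SEL1L and HRD1 work as partners in ERAD, and their genes were set side by side. Sel1l (Entrez Gene 20338), on the minus strand of chromosome 12 from 91806043 to 91849157, had 96.5, 91.4, 96.0 and 85.3 CPM in control replicates 1 to 4 and 125, 122, 139 and 132 CPM in knockout replicates 1 to 4, a log2 fold change of 0.49 ± 0.070 (SE, edgeR adjusted p = 2.1e-04) or 1.40-fold (1.26 to 1.56). Its ligase partner Syvn1 (Entrez Gene 74126), on the plus strand of chromosome 19 from 6046576 to 6053718, had 30.4, 29.1, 28.2 and 27.5 CPM in control libraries and 32.8, 32.2, 33.5 and 35.9 CPM in the knockouts. The groups did not overlap, but the highest control library at 30.4 CPM and the lowest knockout library at 32.2 CPM were close. At 0.22 ± 0.065 on the log2 scale (SE, 1.17-fold, 1.06 to 1.29), Syvn1 had an adjusted p of 0.0136 in the edgeR test and an unadjusted p of 0.0064, and did not pass the threshold. Upper-quartile scaling gave 0.26 with an edgeR adjusted p of 0.0071. The span of Syvn1 overlaps that of Mrpl49 on the opposite strand by 89 bases, and 91 of its exon bases in GENCODE, 1.87%, are shared with it, and the sources do not say if reads were counted by strand.

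The count of Sel1l was 3.18, 3.14, 3.40 and 3.11 times that of Syvn1 in control replicates 1 to 4 and 3.81, 3.78, 4.14 and 3.68 times in knockout replicates 1 to 4. On the log2 scale the ratio was 1.68 ± 0.060 and 1.94 ± 0.074 (SD, n = 4 each), a difference of 0.27 without overlap (two-sided exact permutation, p = 0.0286). Over the 3 ratios compared, the adjusted p of each was 0.0286 (exact permutation test with Benjamini-Hochberg adjustment). A permutation of 4 against 4 cannot reach the threshold of 0.01 used for single genes, so these p-values say only that the ratios of both groups did not overlap.

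**Figure D2:**
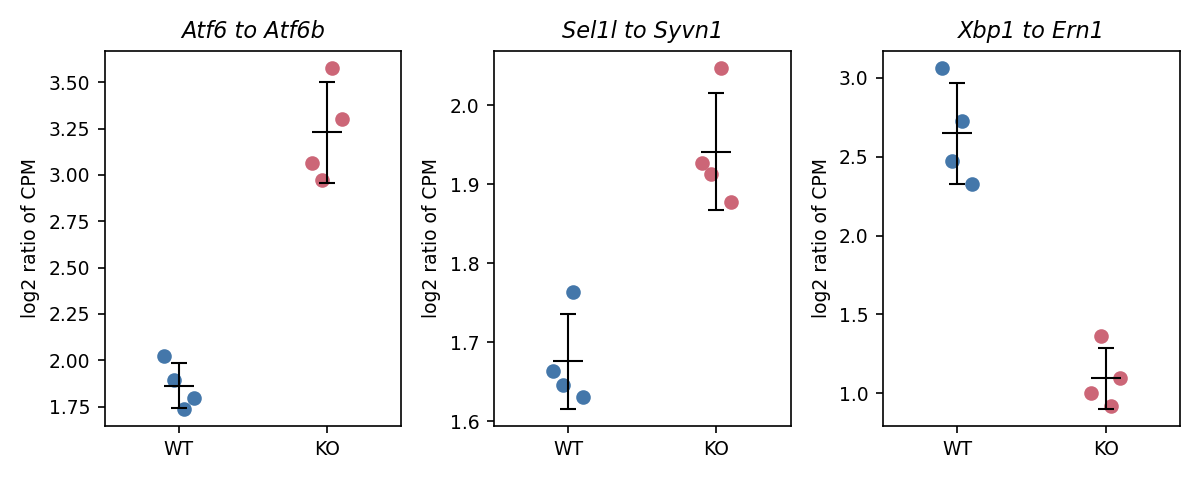
Log2 ratio of CPM (prior count of 2) within each library for Atf6 to Atf6b, Sel1l to Syvn1 and Xbp1 to Ern1. Points are the 4 WT and 4 KO libraries, with mean and SD. The axes do not start at 0. The Atf6 to Atf6b and Sel1l to Syvn1 ratios are higher in all KO libraries, and the Xbp1 to Ern1 ratio is lower in all of them.

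Herpud1 (Entrez Gene 64209), on the plus strand of chromosome 8 from 94386500 to 94395358, had the smallest change among the genes past the threshold. It had 136, 127, 141 and 125 CPM in control replicates 1 to 4 and 173, 165, 202 and 181 CPM in knockout replicates 1 to 4. The log2 fold change was 0.45 ± 0.079 (SE, edgeR adjusted p = 8.1e-04), or 1.36-fold (1.21 to 1.54). This is the gene whose promoter, printed above, held matches to 2 of the elements.

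Edem1 (Entrez Gene 192193), on the plus strand of chromosome 6 from 108828641 to 108859356, rose from a low level. It had 12, 10.2, 8.95 and 13.9 CPM in control replicates 1 to 4 and 21.9, 24.6, 21.4 and 24.2 CPM in knockout replicates 1 to 4. The log2 fold change was 1.03 ± 0.13 (SE, edgeR adjusted p = 8.6e-05), or 2.04-fold (1.67 to 2.5). Creld2 (Entrez Gene 76737), on the plus strand of chromosome 15 from 88819646 to 88826681, encodes a resident protein of the ER lumen and rose as well, with 7.59, 9.49, 10.7 and 9.01 CPM in control libraries and 16.1, 17, 14.7 and 16.1 CPM in the knockouts. Its log2 fold change was 0.79 ± 0.11 (SE, edgeR adjusted p = 1.6e-04), or 1.73-fold (1.46 to 2.06). Whether the changes of Edem1 and Creld2 differed was not tested.

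**Figure D3:**
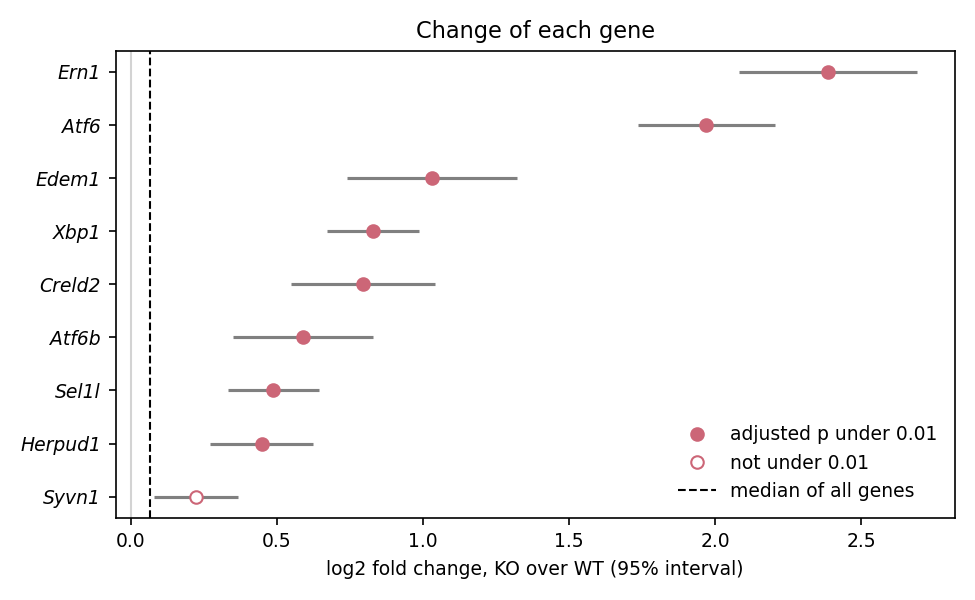
Log2 fold change, KO over WT, of each of the 9 genes with its 95% confidence interval from edgeR, beside the median of all 14012 genes at 0.07. Ern1 at 2.39 and Atf6 at 1.97 lie apart from the other genes, and Syvn1 at 0.22 is the one that did not pass the adjusted threshold.

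Levels were compared between genes on the authors' FPKM scale, which divides by exon length. In the controls the order was Herpud1 at 71.4 ± 3.92 FPKM, Xbp1 at 27.6 ± 1.95, Sel1l at 14.8 ± 0.836, Syvn1 at 7.95 ± 0.373, Creld2 at 6.80 ± 0.917, Atf6 at 5.66 ± 0.356, Atf6b at 4.52 ± 0.576, Ern1 at 2.48 ± 0.378 and Edem1 at 1.94 ± 0.375 (SD, n = 4). The ranges of Syvn1 and Creld2, of Creld2 and Atf6, and of Ern1 and Edem1 overlapped, so these neighbours were not parted. In the knockouts Atf6 at 21.6 ± 3.31 FPKM came after Herpud1 at 94.5 ± 9.90 and Xbp1 at 47.5 ± 2.90, and Ern1 at 12.7 ± 2.04 came after Sel1l at 20.1 ± 1.53. They were followed by Creld2 at 11.5 ± 0.510, Syvn1 at 9.0 ± 0.469, Atf6b at 6.60 ± 0.312 and Edem1 at 3.85 ± 0.235 (SD, n = 4). Overlapping ranges were those of Atf6 and Sel1l and of Ern1 and Creld2.

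Within the groups the 9 genes did not move as 1 block. Knockout replicate 3 had the highest CPM of the knockouts for 5 genes, Atf6, Xbp1, Ern1, Herpud1 and Sel1l, and the lowest for 3, Atf6b, Edem1 and Creld2. This library also had the highest sum of muscle fibre markers among the knockouts, 106431 CPM against 74822 to 89867 CPM in the other knockouts, and the lowest sum of adipocyte markers, 712 CPM against 1447 to 2591 CPM. The part of these markers in the values of the 9 genes was not tested. Deviations of log2 CPM from the group means were correlated over the 8 libraries for the 36 pairs of genes, as a description over libraries that share their depth and scaling. Of the pairs, 18 had a positive and 18 a negative r, with a median of -0.01. The highest r were those of Herpud1 with Sel1l at 0.92, Atf6b with Creld2 at 0.90 and Atf6 with Ern1 at 0.83, and the lowest was that of Atf6b with Xbp1 at -0.77.

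**Figure D4:**
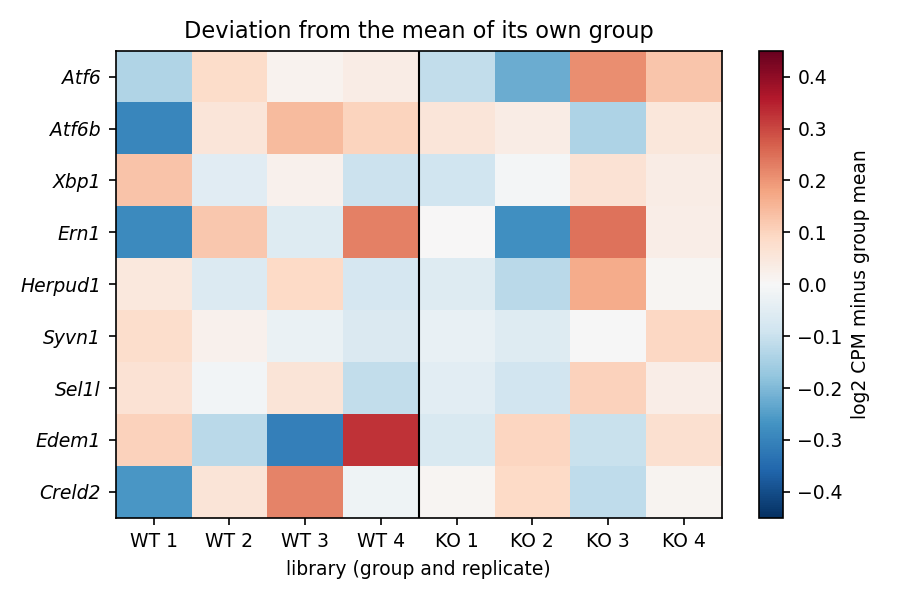
Deviation of the log2 CPM of each of the 9 genes from its group mean in the 4 WT and 4 KO libraries. In KO replicate 3 Atf6, Ern1 and Herpud1 lie above their group mean, while Atf6b, Edem1 and Creld2 lie below it.

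The genes with the pattern most like that of Ern1 over the 8 libraries were sought among 11047 genes with a mean count of at least 50. Pearson's r of log2 CPM was 0.998 for Atf5, a stress-responsive bZIP transcription factor, 0.998 for Hgs, 0.998 for Fez1, 0.997 for Litaf and 0.997 for Tmem189. Atf5 was at 58.5 ± 7.96 CPM in control libraries and 304 ± 32.4 CPM in the knockouts (SD, n = 4 each), and its log2 fold change was 2.38. These r were taken across both groups, so the gap between the groups enters them.

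The other genes of these pathways were taken from 7 lists with 101 genes, of which 98 were measured and Creb3l3, Creb3l4 and Ern2 were not analysed here. Over all lists 48 genes rose, 12 fell and 38 did not pass the threshold, to be read against the 23.6% of all genes that rose and the 21.1% that fell. Among the lists the PERK arm had the highest median log2 fold change, at 1.26 with 7 of 9 genes higher and 0 lower. Trib3, a pseudokinase gene induced by ATF4 and CHOP, rose from 1.16 ± 0.533 to 149 ± 9.73 CPM (log2 fold change 6.98), Ddit3, which encodes CHOP, from 10.5 ± 0.327 to 64.8 ± 13.9 CPM (2.62), and Ero1l, an ER oxidase gene, from 5.87 ± 0.583 to 29.7 ± 2.43 CPM (2.33) (SD, n = 4 each). The gene of the PERK kinase itself, Eif2ak3, was at 7.08 ± 0.415 and 7.98 ± 0.954 CPM (SD, n = 4 each), or 0.17 on the log2 scale, a difference that did not pass the threshold (edgeR adjusted p = 0.24). With library totals alone Eif2ak3 was at 0.83 (edgeR adjusted p = 1.2e-04), and 8 genes of the PERK arm were higher. The genes of the sensor kinases IRE1 and PERK thus had log2 fold changes of 2.39 and 0.17 with TMM factors. With library totals alone they were at 3.04 and 0.83. Whether the changes of Ern1 and Eif2ak3 differed was not tested.

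In the IRE1 list 6 of 9 genes rose and 0 fell, and the median was 0.40. They included Zbtb8os, which encodes a cofactor of the tRNA ligase that joins Xbp1 mRNA, at 1.44, Tmbim6, which encodes an ER membrane protein that restrains IRE1, at 0.94, and Dnajb9, an ER co-chaperone gene, at 0.87. In the list of ATF6 processing and ER-anchored bZIP factors, 2 of 9 genes rose and 4 fell, and the median was -0.14. The site-2 protease gene Mbtps2 rose by 0.56 and Nfya, a subunit gene of the NF-Y factor that binds CCAAT boxes, by 0.53, while Nfyb had a log2 fold change of -0.58, Nfyc of -0.33, and the ER-anchored factor genes Creb3l1 and Creb3l2 of -1.03 and -0.78. The share that rose was near the 23.6% of all genes. With library totals alone 6 genes of this list were higher and 0 lower. Creb3l1 at -0.35 and Creb3l2 at -0.12 then kept their negative sign without passing the threshold, and Nfyb at 0.10 and Nfyc at 0.34 turned positive. Without control replicate 2 only Creb3l2 of the 4 lower genes was past the threshold.

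Of 31 other ERAD genes, 13 rose and 5 fell, and the median was 0.10, close to the 0.07 of all genes. Rnf185, an ERAD ubiquitin ligase gene, rose from 28 ± 1.43 to 104 ± 6.51 CPM (log2 fold change 1.89), and Derl1, a channel gene of ERAD, from 87.3 ± 3.35 to 239 ± 15.7 CPM (1.45) (SD, n = 4 each). Derl3, which also passed the threshold, had 1 to 3 counts per control library and 14 to 38 per knockout library, a ratio of 6.79 with a 95% counting interval of 3.30 to 16.2. Svip, which encodes an inhibitor of ERAD, fell from 50.6 ± 5.40 to 13.1 ± 1.52 CPM (SD, n = 4 each, log2 fold change -1.94), Rnf139 had -0.62 and Ngly1, the cytosolic glycan-removing enzyme gene, -0.61. With library totals alone 27 ERAD genes were higher and 1, Svip, lower, while Rnf139 at 0.05 and Ngly1 at 0.06 turned positive.

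Of 15 ER chaperone genes, 11 rose and 1 fell, and the median was 0.50. Hspa5, which encodes BiP, the chaperone that binds the sensors, rose from 222 ± 8.81 to 562 ± 23 CPM (log2 fold change 1.34), Canx, the calnexin gene, from 119 ± 5.67 to 295 ± 30.9 CPM (1.30), and Sdf2l1 from 3.89 ± 0.551 to 10.2 ± 0.535 CPM (1.38) (SD, n = 4 each). Cdnf fell by 0.91 on the log2 scale, and with library totals alone it was at -0.25 and 0 chaperone genes were past the threshold as lower. ERSE was found in the promoters of 6 chaperone genes, Hspa5, Hsp90b1, Calr, Canx, Pdia6 and Dnajc3. The first 5 of these rose, while Dnajc3 had a log2 fold change of -0.02 (edgeR adjusted p = 0.80). With library totals alone Dnajc3 was at 0.64 (edgeR adjusted p = 3.6e-04). The search covered 13 promoters for the 15 genes of this list, so a gene with no match may have had no promoter searched. Pdia3, Hyou1, Dnajb11, Sdf2l1, Manf and P4hb, for which no ERSE was found, rose as well, and Dnajb11 had a match to ERSE-II. Pdia4, Cdnf and Creld1, for which no ERSE was found either, did not rise past the threshold. Whether ERSE went with the changes was not tested.

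Of 19 genes of the translocon and of ER exit, 7 rose and 1 fell, and the median was 0.28. Sec63 had a log2 fold change of 1.01, Sec61a1, the channel subunit gene, of 0.83 and Sec31a, a coat gene, of 0.47, against -1.03 for Srpr, the gene of the signal recognition particle receptor. The number of higher genes here ranged from 4 to 18 with the scaling. Of 6 ER-phagy receptor genes, 2 rose and 1 fell, and the median was 0.16. Tex264 rose from 24.6 ± 1.64 to 139.5 ± 9.33 CPM (SD, n = 4 each, log2 fold change 2.5) and Fam134b by 0.89, while Ccpg1 had -0.47. Fam134b varied between libraries, at 124 to 228.2 CPM in control and 228.6 to 366 CPM in knockout libraries. Without control replicate 2 Fam134b was at 0.79 and not past the threshold (edgeR adjusted p = 0.018). With library totals alone Ccpg1 was at 0.20, and 5 of the ER-phagy receptor genes were higher and 0 lower.

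**Figure D5:**
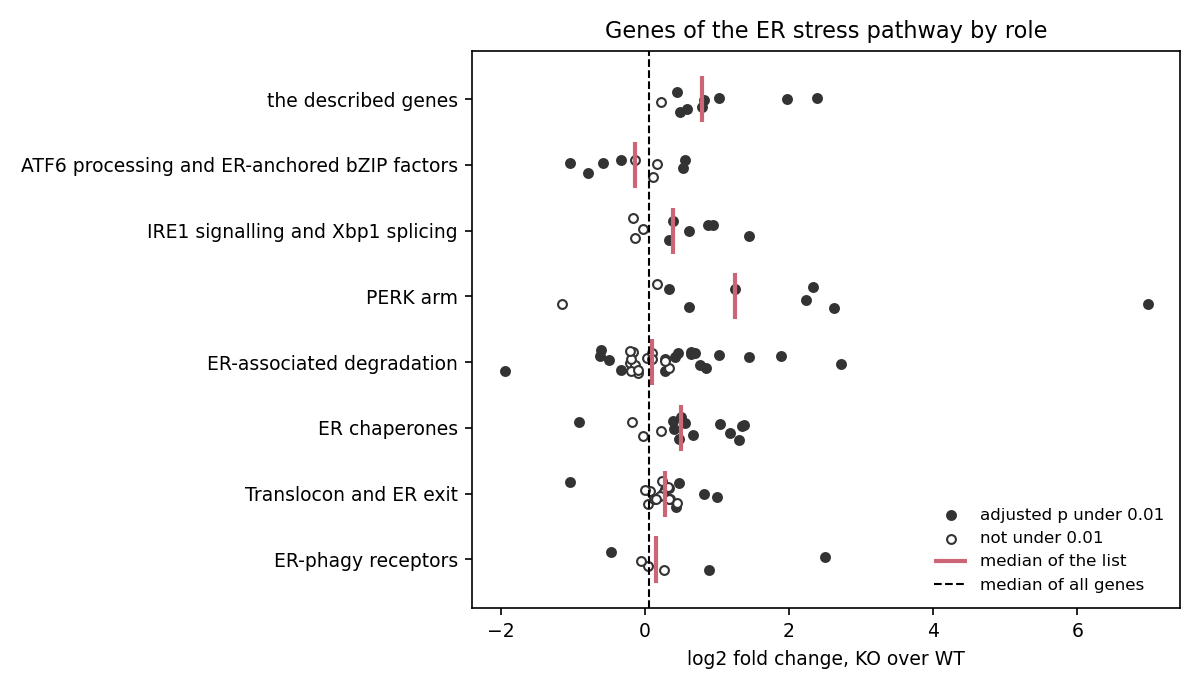
Log2 fold change, KO over WT, of every measured gene in the 9 genes and in 7 lists of related genes, with the median of each list. The PERK arm has the highest list median at 1.26, and the list of ATF6 processing and ER-anchored bZIP factors the lowest at -0.14.

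Markers of cell types moved with the groups as well. Of 10 muscle fibre genes, 9 were lower and 1, Myh1, higher, and their summed level was 220155 to 282441 CPM in control libraries and 74822 to 106431 CPM in knockout libraries. Fibroblast genes had 5 of 8 lower, summing to 1756 to 2632 and 702 to 1078 CPM, and endothelial genes 5 of 7 lower, summing to 331 to 488 and 256 to 282 CPM. Of 10 macrophage genes, 1 was higher, Cd68 at 2.62, and the sum was 80.01 to 214 CPM (control) and 179 to 335 CPM (knockout). Of the plasma cell list, whose cells hold much ER, 3 of 8 genes were measured, none past the threshold, at 5.33 to 6.28 and 5.38 to 7.11 CPM in sum. Satellite cell genes had 2 higher and 2 lower of 5, with sums of 29.8 to 33.6 and 38.9 to 54.7 CPM. Adipocyte genes summed to 249 to 1497 and 712 to 2591 CPM, Schwann cell genes to 40.8 to 136 and 67.1 to 109 CPM and erythroid genes to 41.1 to 102 and 8.61 to 96.7 CPM, with 0 genes past the threshold in each list. The marker counts are to be read against the 23.6% of all genes that were higher and the 21.1% that were lower. Marker levels were taken with TMM factors only. With library totals alone the median log2 change over all genes moved from 0.07 to 0.73. How many markers were lower under that scaling was not examined. The part of the marker shifts in the changes of the 9 genes was not tested.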

How the data were processed

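RNA-seq of quadriceps femoris from 8 mice, 4 per label, was analysed from the deposited table. Per the labels the authors used STAR 2.5.4b with GRCm38, DESeq2 1.32.0, cutadapt and bcl2fastq 2.20.0.422, and per the methods Rsubread for counting on exons. The labels name TRIzol for RNA extraction and the methods a column kit. The raw counts per gene, used for all tests, and the FPKM values, used to order levels between genes, are as deposited by the authors. The deposited exon widths are summed exon bases, a score per gene. The authors' fold changes, p-values and mean signal were not used.

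All 14012 genes were tested on counts with edgeR 4.0.16 in R 4.3.3 (TMM, glmQLFit and glmQLFTest, Benjamini-Hochberg adjustment, adjusted p under 0.01), with limma 3.58.1 loaded by it and DESeq2 1.42.0 as an alternative. Log2 CPM used a prior count of 2. Single ratios were compared by exact permutation over 70 assignments. Intervals are at 95%. Replicates differed by more than sampling noise, with a chi-square of 18.1 to 43.6 per degree of freedom. That they are separate mice rests on the numbers in the labels. The genes and lists were chosen with earlier results of these data known. Named genes of a list are the 3 largest rises and 3 largest falls past the threshold at most, and any other gene was named after its values were seen. Alternatives covered scaling, filtering, test, threshold, the replicate block and each library left out. In simulated counts with 100 genes changed at each size, edgeR recovered 66% of log2 changes of 1 and 90% of those of 2. The simulation had few changed genes, while 44.7% of genes differed here, so it does not test the scaling between libraries.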

Additional observations from a re-analysis of the deposited data

Results flagged for a closer look

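The level of Atf6b in the libraries labelled knockout had 1 library apart from the others. Knockout replicate 3 was at 15.7 CPM and the other 3 knockouts at 17.7 to 18 CPM. The gap to the nearest library was 0.871 of the whole range of the group, above Dixon's 95% critical value for 4 samples. It was the only one flagged of 18 sets of 4 libraries examined, and at 95% chance alone is expected to flag about 1 such set. Without this library the log2 fold change of Atf6b was 0.60 (edgeR adjusted p = 0.0019), against 0.59 with it.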

How the results depend on the processing

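In all 16 alternatives 8 or 9 of the 9 genes were higher and 0 lower, and all but Syvn1 kept their direction and side of the threshold. Syvn1 passed it with upper-quartile scaling (0.26), with library totals alone (0.89) and at an adjusted p under 0.05 (0.22), and with each library left out it lay at 0.17 to 0.25, with edgeR adjusted p up to 0.071. With library totals alone 8498 genes were higher and 873 lower. Under that scaling the higher and lower genes were 6 and 0 in the ATF6 processing list, 27 and 1 in ERAD and 5 and 0 in ER-phagy, with 18 higher in the translocon list and 0 chaperones lower. The translocon list had 4 genes higher with RLE size factors, 12 with upper-quartile scaling, 4 with DESeq2 and 13 at an adjusted p under 0.05, where 1 PERK gene, Chac1, was lower. The cause was not tested.

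Leaving out each library in turn (WT for control, KO for knockout) gave 4 to 7 higher translocon genes (4 without WT 2, WT 4, KO 1, KO 3 or KO 4) and 1 to 2 higher ER-phagy genes (1 without WT 1, WT 2, WT 3, KO 3 or KO 4). It gave 1 to 2 higher ATF6 processing genes (1 without WT 3, KO 2, KO 3 or KO 4) and 1 to 4 lower ones (1 without WT 2), and 0 to 1 lower PERK genes (1 without WT 2).

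With the replicate number as a block 6123 genes differed, 8 of the 9 genes were higher, and Chac1 was the 1 PERK gene lower. The labels do not say that a number is shared between groups. Deviations of same-numbered libraries correlated at 0.21, 0.035, 0.51 and 0.16 over 11048 genes, and 3 of 4 numbers matched best with themselves, a hint from the data only. Replicate 3 of each group had the highest sum of muscle fibre markers and the lowest sum of adipocyte markers in its group. The numbers were not taken as pairs, since no label pairs them, and the block is given as an alternative only. Genes with few counts, such as Derl3, are limited by depth.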

Other observations

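Chac1, a glutathione-degrading enzyme gene of the PERK list, went against the other genes of that arm in its values. It was at 45.1 to 189 CPM in control libraries and 39.8 to 64.8 CPM in knockout libraries, a log2 fold change of -1.15 that did not pass the threshold (edgeR adjusted p = 0.020). With the replicate number as a block it was at -0.99 (edgeR adjusted p = 0.0044) and without control replicate 2 at -1.41 (edgeR adjusted p = 0.0021), past the threshold in both. Its promoter and that of Trib3 both held the C/EBP-ATF element, and Trib3 had a log2 fold change of 6.98. Sec63, which passed the threshold, also varied among the controls, from 24.7 to 49.97 CPM, against 66.3 to 76.0 CPM in the knockouts. Chac1 was named after its values were seen. Sec63 was named by the rule for lists, and its spread was noted after its values were seen.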
